A study of Mus musculus with 2 samples.

Results

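Of the 28692 genes counted in the deposited matrices, 7 were selected by gene symbol: Il4, Il5, Il13, Csf2, Areg, Il1rl1 and Ccl1. They are the type 2 cytokines interleukin-4, interleukin-5 and interleukin-13, the growth factor GM-CSF (Csf2), the epidermal growth factor receptor ligand amphiregulin (Areg), the interleukin-33 receptor ST2 (Il1rl1) and the chemokine Ccl1. The 7 genes were chosen by name and not by their values, although earlier results of these data were known. They were measured by single-cell RNA sequencing in CD45+ leukocytes of adipose tissue from adult wild-type C57BL/6 mice. The mice ate control chow or a ketogenic diet (KD), which is low in carbohydrate and high in fat, for 1 week, and intravenous labelling set tissue-resident leukocytes apart from those inside blood vessels. Each diet was represented by 1 library, and the number of mice behind each library, their age in weeks and the fat depot are not given in the sources used here. No difference between the diets below therefore has a replicate check, no test was made, and diet cannot be told apart from library.

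Group 2 innate lymphoid cells (ILC2s) and a subset of regulatory T cells (Tregs) in adipose tissue carry ST2, the receptor through which interleukin-33 from stromal cells acts. On activation ILC2s release interleukin-5, which maintains eosinophils, interleukin-13, which acts on macrophages and stromal cells, and GM-CSF, which acts on myeloid cells. Amphiregulin is a tissue repair factor made by ILC2s and Tregs, and Ccl1 is the ligand of the receptor Ccr8.

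The chow library held 4545 cells and 21570910 unique molecular identifiers (UMIs, each 1 captured transcript), and the ketogenic library 5614 cells and 26041785, with medians of 3469 and 3461.5 UMIs per cell. The authors' deposited table put 4458 and 5559 of these cells in 13 clusters, numbered 0 to 12. The clusters were named here from marker genes, and 41 cell barcodes occurred in both libraries. Levels are UMIs summed over the cells of a cluster in 1 library, in counts scaled to 1000000 UMIs of those cells (CPM), with exact Poisson 95% intervals in square brackets. Ratios are log2 of CPM, ketogenic over chow, with exact conditional 95% intervals. All intervals cover counting error only: many UMIs of a gene can come from 1 cell, and neither the spread between cells nor that between mice is in them.

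The ILC2-like cluster 0 held 854 chow and 1310 ketogenic cells. It had 9 of 14 ILC2 markers raised, among them Gata3, Rora, Klrg1, Hs3st1 and Il7r, and none of 9 CD4 T cell or 9 NK cell markers. Of markers on other lists, Il2ra and Tnfrsf18 (Treg), Tcrg-C1 (gamma-delta T cell), Socs2 (mature dendritic cell) and Hdc, Kit and Tpsb2 (3 of 11 basophil and mast cell markers) were raised too. Ptgdr2, another ILC2 marker, had 0 chow UMIs and 1 ketogenic UMI, and the hemoglobin gene Hba-a1 was among its 10 leading genes. The red blood cell list summed to 105 CPM in its chow cells and 517 CPM in its ketogenic cells, the macrophage list to 163 and 46.1 CPM, the neutrophil list to 116 and 7.11 CPM and the cycling list to 111 and 42.2 CPM. Of these lists, 2 of 4 red blood cell and 1 of 6 neutrophil genes were at 0 under chow and 1 of each under the ketogenic diet, and no macrophage or cycling gene was. Their part in the results below was not tested. The Treg-like cluster 7 held 160 chow and 328 ketogenic cells and had all 8 Treg markers raised, besides 8 of 9 CD4 T cell and 6 of 14 ILC2 markers, among them Gata3, Rora, Klrg1 and Il7r. In cluster 7, chow then ketogenic, the macrophage list summed to 217 and 72.1 CPM, the monocyte list to 2096 and 1227 CPM, the eosinophil list to 145 and 53.7 CPM and the red blood cell list to 10.0 and 88.4 CPM. None of 10 macrophage genes was at 0 there, 2 and 0 of 7 monocyte genes were, 4 of 7 eosinophil genes were in each library and 2 of 4 red blood cell genes were in each. The T cell receptor gene Trac stood at 371 and 636 CPM in cluster 7. The part of these shifts in the results was not tested. Since the clusters were built from expression, which included these 7 genes, their height in cluster 0 or 7 is a description and not a finding. Csf2, Il5 and Ccl1 were among the 10 leading genes of cluster 0, and Areg among those of cluster 7.

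The 4 genes Il4, Il13, Il5 and Csf2 lie within 1 stretch of mouse chromosome 11 (GRCm38 assembly, GENCODE M21 annotation, matched by Ensembl identifier). Il4 spans chr11:53602982-53618669 and Il13 spans chr11:53631324-53634702, both on the minus strand, with 12654 bases between them and no protein-coding gene in that gap. Il5 follows at chr11:53720794-53725106 on the plus strand, 86091 bases from Il13 across Rad50. Csf2 lies at chr11:54247271-54249667 on the minus strand, 522164 bases from Il5 with 8 protein-coding genes in between. Ccl1 lies farther along the same chromosome at chr11:82176657-82305690 on the minus strand, Areg at chr5:91139599-91148432 and Il1rl1 at chr1:40429570-40465415, both on the plus strand. Il5 and Csf2 overlap the annotated antisense genes Gm12214 and Gm12223, which were counted too, and whether the counting used strand is not given in the sources used here.

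The 250 bases before the annotated start are shown for the receptor, for the pair of cytokines whose detection was most closely tied in single cells, and for amphiregulin, which differed from the cytokines in where it was detected. The windows are RefSeq sequence of GRCm38.p6, 5′ to 3′ in the direction of the gene. Capitals mark GATA motifs (AGATAA on either strand, with T also allowed as its first and G as its last base), the cyclic AMP response element TGACGTCA, and the TATA box letters TATAAA read in the direction of the gene. All 7 genes had an entry, Il4 and Il1rl1 with 2 starts each, and the first Il1rl1 start is shown.
Il1rl1, chr1:40429320-40429569, plus strand: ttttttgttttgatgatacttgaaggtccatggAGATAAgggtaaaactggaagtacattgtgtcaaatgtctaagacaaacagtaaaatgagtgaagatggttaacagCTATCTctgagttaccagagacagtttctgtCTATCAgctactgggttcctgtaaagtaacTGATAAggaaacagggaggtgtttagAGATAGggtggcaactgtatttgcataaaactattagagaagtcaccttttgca
Il5, chr11:53720544-53720793, plus strand: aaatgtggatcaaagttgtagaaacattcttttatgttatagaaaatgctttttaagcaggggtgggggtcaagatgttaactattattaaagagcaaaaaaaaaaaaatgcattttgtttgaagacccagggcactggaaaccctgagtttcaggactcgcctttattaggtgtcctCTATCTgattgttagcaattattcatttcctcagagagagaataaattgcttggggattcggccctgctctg
Il13, chr11:53634703-53634952, minus strand: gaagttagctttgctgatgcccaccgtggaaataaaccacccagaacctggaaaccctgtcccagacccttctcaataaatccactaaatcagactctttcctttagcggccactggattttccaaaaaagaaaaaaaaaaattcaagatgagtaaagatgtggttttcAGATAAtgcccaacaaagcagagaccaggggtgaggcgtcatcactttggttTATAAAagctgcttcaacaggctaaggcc
Areg, chr5:91139349-91139598, plus strand: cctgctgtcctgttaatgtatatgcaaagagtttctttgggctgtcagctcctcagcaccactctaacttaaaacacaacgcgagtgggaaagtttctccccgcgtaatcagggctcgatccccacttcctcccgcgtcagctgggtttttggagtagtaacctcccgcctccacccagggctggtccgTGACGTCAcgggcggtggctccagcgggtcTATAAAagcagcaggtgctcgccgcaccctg
The Il1rl1 window held 5 GATA matches, the Il5 and Il13 windows 1 each, and the Areg window none. GATA letters occurred in 26.5% of all 32851 RefSeq windows of this length. The Il13 match began 81 bases and the Il5 match 72 bases before the start. The Areg window held TGACGTCA from 61 to 54 bases before the start, letters found in 1.55% of all windows. TATAAA was present 29 bases before the Il13 start and 31 bases before the Areg start, and in 7.59% of all windows. The AP-1 motif (TGACTCA, with G also allowed as its middle base) was searched too and was in none of the 4 windows shown and in 4.46% of all windows. A match of letters does not show that a factor binds there.

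Il1rl1, the receptor, was lower under the ketogenic diet both in ILC2-like and in Treg-like cells. In cluster 0 it had 1880 chow and 2235 ketogenic UMIs, which is 790 CPM [755–827] in chow cells against 513 CPM [492–534] in ketogenic cells. In cluster 7 it stood at 596 CPM [530–668] and 379 CPM [348–412]. The counting intervals of the libraries did not overlap in either cluster, and how many of all genes this held for was not counted. The log2 ratio was −0.62 [−0.71 to −0.54] in cluster 0, which is 1.54-fold lower, and −0.65 [−0.86 to −0.44] in cluster 7, which is 1.57-fold lower. In each of these clusters few genes had a lower ratio, 4.41% of the 5402 genes with at least 100 UMIs in cluster 0 and 3.97% of 2294 in cluster 7. Of the 11 clusters in which Il1rl1 had at least 20 UMIs over both libraries, 10 had the lower level under the ketogenic diet, 5 of them beyond counting error. The exception was the B and plasma-like cluster, with 8 and 27 UMIs. Outside clusters 0 and 7, Il1rl1 was highest in the unnamed cluster 8 under chow, at 89.3 CPM, and in the cDC2-like cluster 5 under the ketogenic diet, at 52.8 CPM. In the cDC1-like cluster 6, taken as background because dendritic cells of this kind should lack the gene, it stood at 20.5 and 19.2 CPM, a log2 ratio of −0.10 [−0.64 to 0.47].

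The share of ILC2-like cells with an Il1rl1 UMI followed the level. After thinning each cell to 1000 UMIs it was 53.4% in the chow and 38.7% in the ketogenic library (84.4% and 75.0% unthinned), at median depths of 2610.5 and 3133 UMIs. In cDC1-like cells, which should lack the transcript, the thinned share was 1.94% in both libraries, and 12.1% and 12.4% unthinned at medians of 7906 and 9922 UMIs. In single-cell sums, fewer transcripts per cell and fewer cells with the transcript cannot be told apart at this depth.

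**Figure D1:**
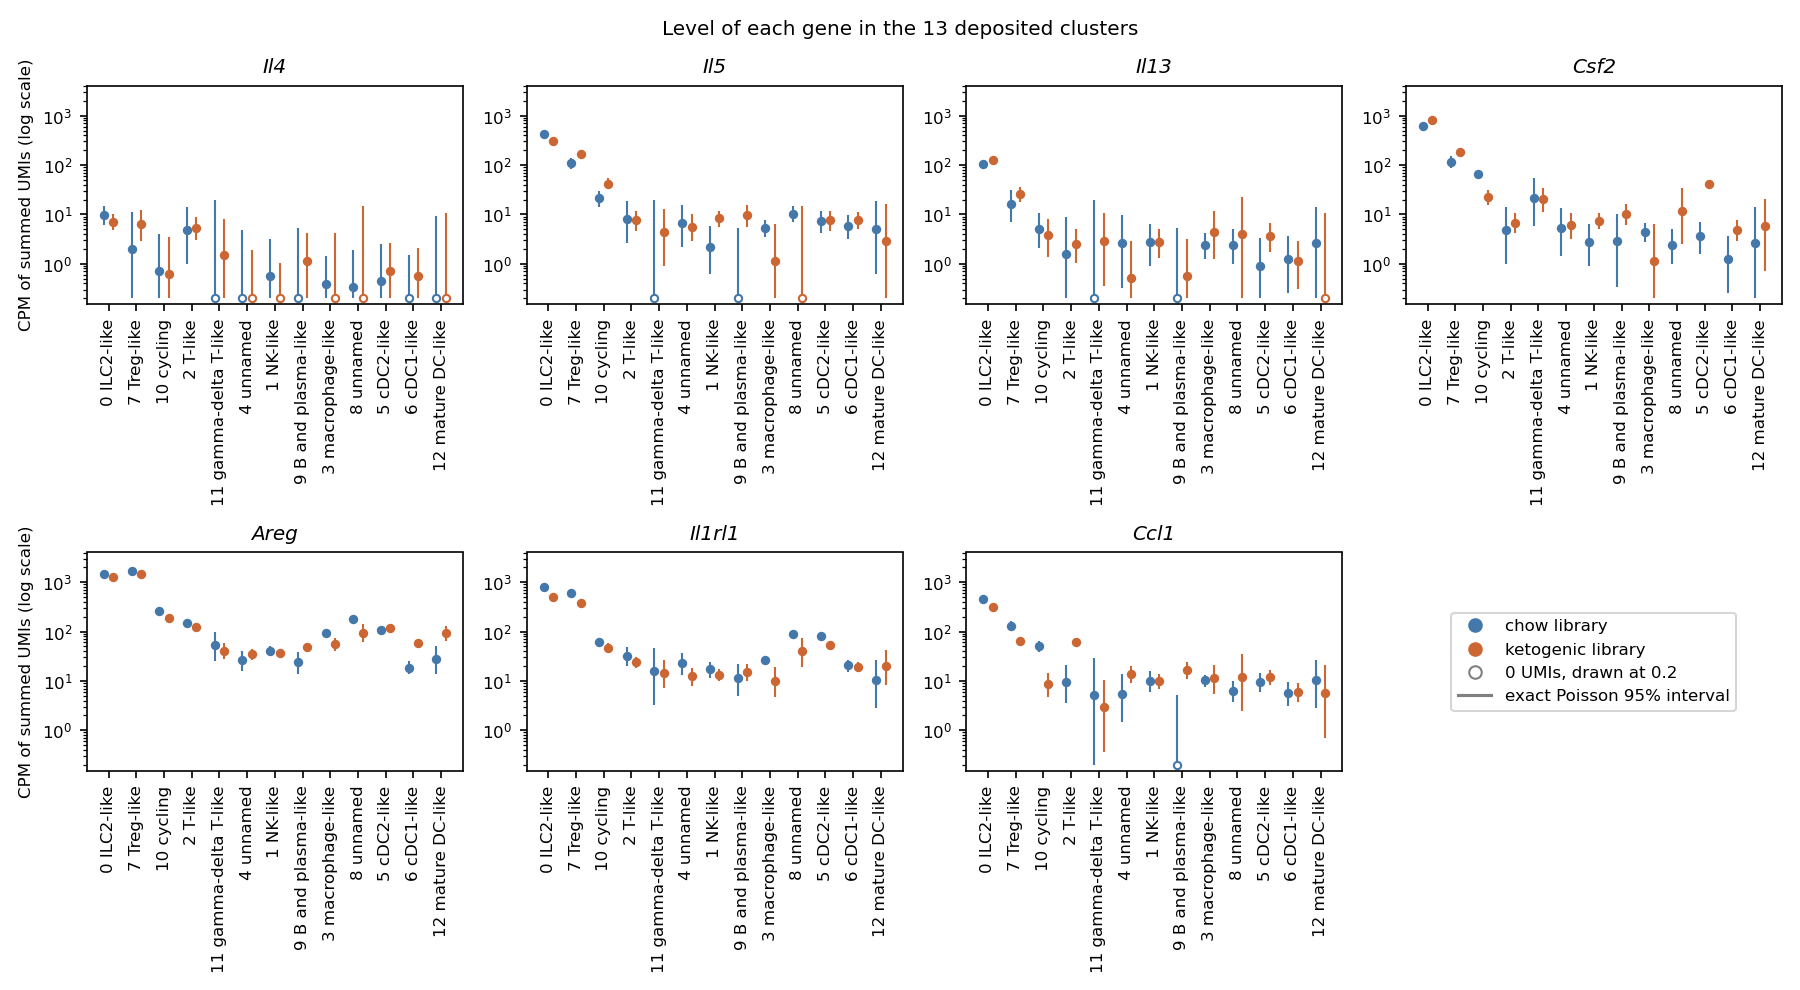
Level of each of the 7 genes in the 13 clusters, in CPM of summed UMIs on a log axis, with exact Poisson 95% intervals; blue points are the chow and orange points the ketogenic library. Clusters 0 and 7 stand highest for each gene but Il4, and the Il1rl1 points of the ketogenic library lie below those of chow in both, at 513 against 790 CPM and 379 against 596 CPM.

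Among the cytokines, Il5 was lower and Csf2 higher in ILC2-like cells of the ketogenic library. Il5 had 1014 chow and 1319 ketogenic UMIs, which is 426 CPM [400–453] in chow cells against 303 CPM [286–319] in ketogenic cells. Its log2 ratio in cluster 0 was −0.49 [−0.61 to −0.38]. Thinned, 16.7% of chow and 11.3% of ketogenic ILC2-like cells had an Il5 UMI, against 0.502% and 0.678% of cDC1-like cells. Csf2 went the other way, with 1443 chow and 3543 ketogenic UMIs, which is 607 CPM [576–639] against 813 CPM [786–840]. Its log2 ratio was 0.42 [0.33–0.51], and the thinned shares of cells with a UMI were 23.1% and 25.8%, whose exact binomial intervals overlap. Neither gene's levels overlapped between the libraries within counting error in cluster 0, and how many of all genes did so was not counted. Of the 5402 genes with at least 100 UMIs there, 7.74% had a lower ratio than Il5 and 16.5% a higher one than Csf2.

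Il13 was carried by few cells, and single cells moved its ratio. It had 248 chow and 560 ketogenic UMIs, which is 104 CPM [91.7–118] in chow cells against 128 CPM [118–140] in ketogenic cells, a log2 ratio of 0.30 [0.08–0.52]. A single chow cell held 80 of the 248 UMIs, which is 32.3%. Without the cell with most Il13 UMIs in each library the ratio was 0.69, and without the top 3 cells of each library it was 0.74. In cells without a UMI of a Cd3 gene, which include that chow cell, the ratio was −0.25 [−0.52 to 0.02], and without the top cell of each library there it was 0.35. Thinned, 3.51% [2.38–4.98] of chow and 4.53% [3.45–5.77] of ketogenic cells had an Il13 UMI, and these intervals overlap. That chow cell, with 3437 UMIs in all, also held the most Csf2 UMIs of its cluster and library, 28, and 34 Il5 UMIs, the highest number there and one that another cell also held.

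Il4 was near the limit of detection. Cluster 0 held 23 chow and 31 ketogenic UMIs, at 9.67 CPM [6.13–14.5] and 7.11 CPM [4.83–10.1], and the log2 ratio of −0.45 [−1.27 to 0.40] lay within counting error. No ILC2-like chow cell had more than 1 Il4 UMI. In the T-like cluster 2 there were 3 chow and 15 ketogenic Il4 UMIs, and in cluster 7 there were 1 and 9. Of the 23 chow ILC2-like cells with an Il4 UMI, 7 also had an Il13 UMI and 9 an Il5 UMI, against 2 and 2 of the 28 ketogenic ones.

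Summed over each of clusters 0 and 7, Areg had the log2 ratio nearest to 0 of the members with at least 20 UMIs there. In cluster 0 it had 3433 chow and 5660 ketogenic UMIs, which is 1443 CPM [1395–1492] in chow cells against 1298 CPM [1265–1333] in ketogenic cells, a log2 ratio of −0.15 [−0.21 to −0.09]. In cluster 7 it stood at 1654 CPM [1543–1771] and 1451 CPM [1389–1515], a log2 ratio of −0.19 [−0.31 to −0.07]. In each library the level was thus higher in cluster 7 than in cluster 0, with intervals that did not overlap. The cycling cluster 10 came next, at 265 and 186 CPM. Over all 13 clusters the Areg ratio ran from −0.90 to 1.68, and it was lower beyond counting error in 5 of them and higher in 3. Thinned, 41.9% and 39.0% of ILC2-like cells and 52.8% and 50.4% of Treg-like cells had an Areg UMI, against 1.63% and 4.43% of cDC1-like cells.

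Ccl1 was lower under the ketogenic diet in the sums of the ILC2-like and the Treg-like cluster, but not in every subset of their cells. In cluster 0 it had 1065 chow and 1389 ketogenic UMIs, which is 448 CPM [421–475] in chow cells against 319 CPM [302–336] in ketogenic cells, a log2 ratio of −0.49 [−0.61 to −0.37]. In cluster 7 it stood at 130 CPM [101–166] and 63.6 CPM [51.2–78.2], from 65 and 90 UMIs, a log2 ratio of −1.04 [−1.51 to −0.55]. In cells of cluster 0 with a UMI of a Cd3 gene the ratio was 0.19 [−0.02 to 0.41]. In cluster 7, cells with a UMI of the Treg factor Foxp3 held 0 chow and 3 ketogenic Ccl1 UMIs, and in cells with neither a Foxp3 nor a Cd3 UMI the ratio was 0.85 [−0.02 to 1.82], from 16 and 36 UMIs. Of those 16 chow UMIs 1 cell held 14, and without the top cell of each library the ratio was 2.94, from 2 and 23 UMIs. The thinned share of ILC2-like cells with a Ccl1 UMI was 14.1% in the chow and 9.85% in the ketogenic library. The transcript of its receptor Ccr8 stood at 81.6 and 117 CPM in the same cluster, a log2 ratio of 0.52 [0.28–0.77].

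Cluster 0 held most UMIs of each gene in the chow library, and of each gene but Il4 in the ketogenic library. For Il5 the share of all clustered UMIs was 84.5% [82.3–86.5] in the chow and 75.1% [73.0–77.1] in the ketogenic library. For Csf2 it was 87.4% and 87.2%, for Il13 83.8% and 87.2%, and for Ccl1 79.7% and 76.2%. Il1rl1 and Areg were more widely shared, with 63.4% and 68.6% of Il1rl1 UMIs and 55.9% and 60.8% of Areg UMIs in cluster 0. The Treg-like cluster held a further 13.4% and 22.0% of Areg and 10.0% and 16.5% of Il1rl1. These shares move with the number of cells, and cluster 7 held 3.59% of chow and 5.90% of ketogenic cells.

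Read against all genes, most ratios of the members lay within the range that holds the middle 90% of genes. Ccl1 in cluster 7 lay outside it, and whether Il1rl1 did turned on the minimum count of the genes compared. In cluster 0, 2.85% of the 9274 genes that reached 20 UMIs in the libraries together were at least 2-fold higher and 3.09% at least 2-fold lower under the ketogenic diet, and none of the 7 was past 2-fold either way. The median log2 ratio of the 5402 genes with at least 100 UMIs was 0.08, and the middle 90% lay between −0.60 and 0.65, with only Il1rl1 outside. Over all 9274 genes with at least 20 UMIs it lay between −0.82 and 0.81, with all 7 members inside. In cluster 7, 6 of the 7 genes had at least 20 UMIs. The middle 90% lay between −0.60 and 0.74 over the 2294 genes with at least 100 UMIs, with Il1rl1 and Ccl1 outside, and between −0.85 and 1.10 over the 6742 genes with at least 20, with only Ccl1 outside. There 6.23% of 6742 genes were at least 2-fold higher, none of the 6 among them, and 2.88% at least 2-fold lower, which included Ccl1. Without the top Ccl1 cell of each library, chosen after seeing the data, its ratio was −0.74 and no longer past 2-fold. Il5 was higher in cluster 7 of the ketogenic library, at 108 CPM [81.4–141] and 169 CPM [148–192], a log2 ratio of 0.63 [0.21–1.09], while it was lower in cluster 0. Single cells held 17 of its 54 chow and 49 of its 239 ketogenic UMIs in cluster 7. Cells there with neither a Foxp3 nor a Cd3 UMI had an Il5 ratio of 2.78 [1.58–4.59], from 5 and 46 UMIs. Cells with a Foxp3 UMI held 2 and 21 Il5 UMIs, and in those without one the ratio was 0.67 [0.24–1.14]. These groupings were chosen after seeing the data. Csf2 was higher in both clusters, with a log2 ratio of 0.63 [0.23–1.08] in cluster 7, from 58 and 257 UMIs. In cells of cluster 7 with neither a Foxp3 nor a Cd3 UMI its ratio was 1.37 [0.67–2.18], from 21 and 68 UMIs. Without the top cell of each library it was 3.47 there, from 3 and 47 UMIs. For Il13 in cluster 7, with 8 and 36 UMIs, the log2 ratio was 0.60 [−0.47 to 1.98].

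**Figure D2:**
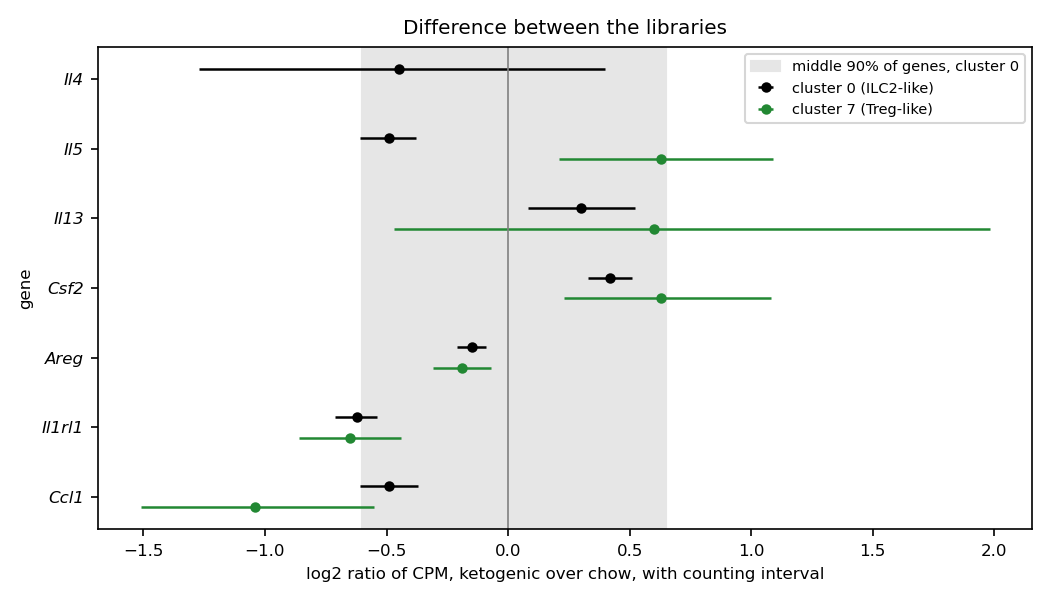
Log2 ratio of CPM, ketogenic over chow, with exact conditional 95% intervals for counting error, in ILC2-like cluster 0 (black) and Treg-like cluster 7 (green); the grey band holds the middle 90% of genes with at least 100 UMIs in cluster 0, and Il4 had too few UMIs in cluster 7. Il1rl1 lies at −0.62 and −0.65, and Il5 lies at −0.49 in cluster 0 and 0.63 in cluster 7.

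Within the ILC2-like cluster the UMIs of the receptor were spread over many cells, and those of the secreted factors were more concentrated. Unthinned, 57.6% of chow and 55.9% of ketogenic cells had an Areg UMI and 33.5% and 38.1% a Csf2 UMI. For Il13 the shares were 6.21% and 7.79%. In the chow library 50% of Il1rl1 UMIs were held by 194 of 854 cells, and no cell held more than 11. For Areg 68 cells held 50%, for Csf2 51, for Il5 34, for Ccl1 25 and for Il13 only 5 cells. In the ketogenic library the numbers of 1310 cells were 272 for Il1rl1, 102 for Areg, 74 for Csf2, 31 for Il5, 20 for Ccl1 and 12 for Il13. The order of these 6 genes was the same in both libraries. The genes also differed in their number of UMIs, and the part of that number in the order was not tested. The top 1% of ketogenic cells, 13 cells, held 41.3% of Ccl1 UMIs, 30.1% of Il5 UMIs and 4.21% of Il1rl1 UMIs.

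**Figure D3:**
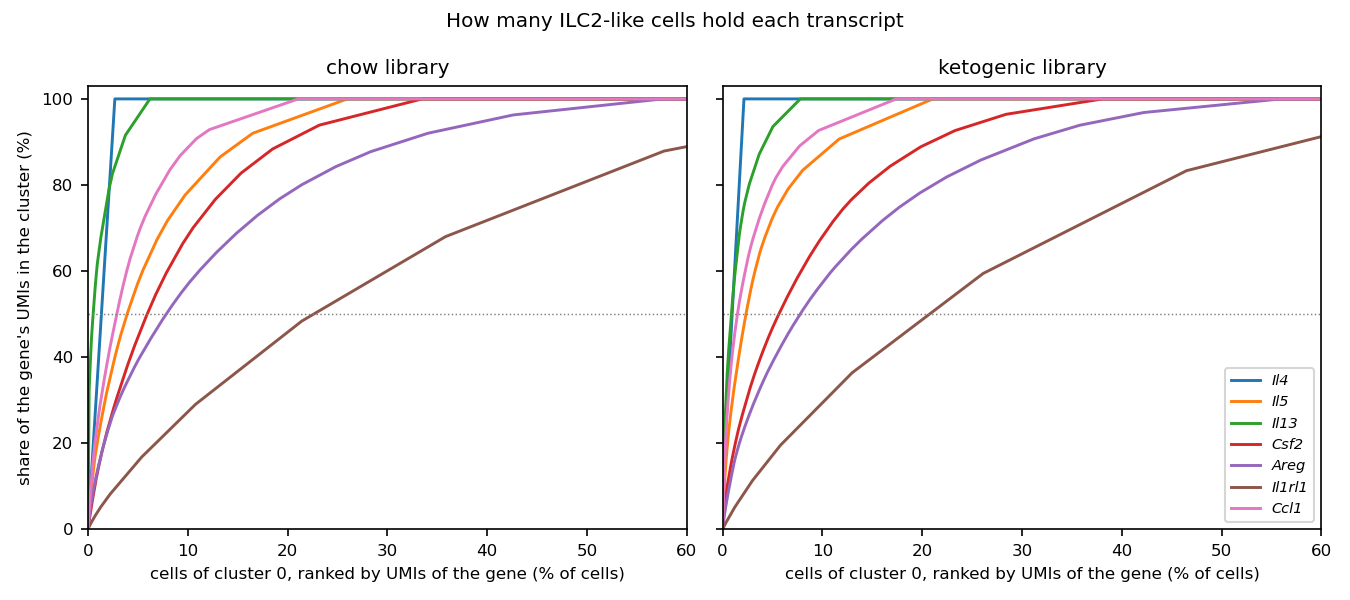
Cumulative share of each gene's UMIs in cluster 0 against cells ranked by their UMIs of that gene, in percent of the cells of the cluster; the dotted line marks 50%. The Il1rl1 curve is the flattest in both libraries, reaching 50% with 194 of 854 chow and 272 of 1310 ketogenic cells, while the Il13 curve reaches it with 5 and 12 cells.

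The secreted factors were detected in the same cells more often than in the rest, and this held least for the receptor. Detection of one gene was compared between cells with and without a UMI of another, with every cell thinned to 1000 UMIs. Il13 was detected in 10.3% of chow cells with Il5 and in 2.14% of those without, a ratio of 4.84. Under the ketogenic diet the shares were 14.2% and 3.30%, a ratio of 4.29. This ordered pair had the highest ratio of 30 in each library. The 20 ordered pairs among Il5, Il13, Csf2, Areg and Ccl1 had ratios from 1.33 to 4.84 under chow and from 1.30 to 4.29 under the ketogenic diet, so all 20 were above 1 in both. Each pair of genes stands here in both orders, which always lie on the same side of 1 and are not separate results. Pairs of other genes were not set beside them. The 10 pairs with Il1rl1 ranged from 0.782 to 1.02 under chow and from 1.03 to 1.17 under the ketogenic diet. In the chow library Il5 was detected in 16.7% of cells with Il1rl1 and also in 16.7% of cells without.

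**Figure D4:**
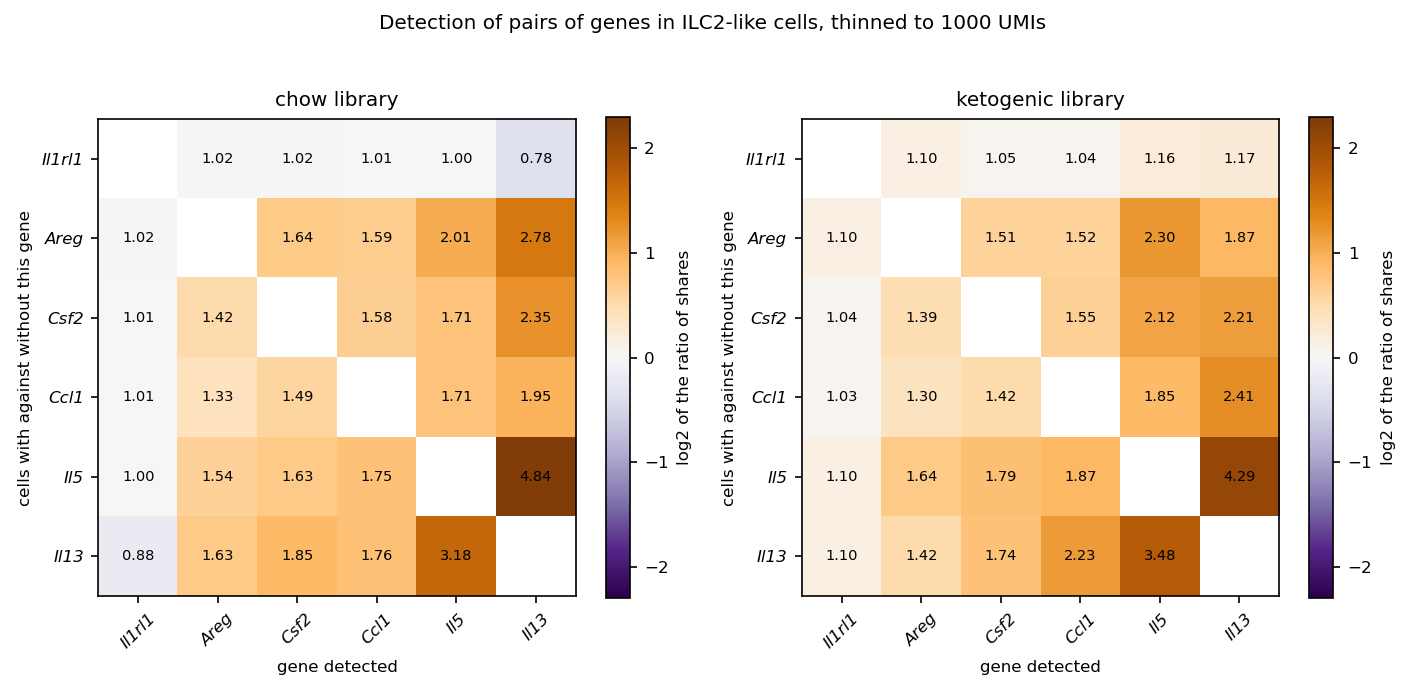
Ratio of the share of ILC2-like cells with a UMI of the column gene, among cells with against cells without a UMI of the row gene, after thinning to 1000 UMIs; the colour shows the log2 of the ratio, chow left and ketogenic right. The row and the column of Il1rl1 stay between 0.782 and 1.17, and Il13 given Il5 is highest at 4.84 and 4.29.

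Cells were also grouped by how many of Il5, Il13, Csf2 and Ccl1 they carried. Of ILC2-like cells, 44.1% under chow and 44.5% under the ketogenic diet had no UMI of any of the 4, and 7 and 12 cells had all 4. In chow cells the Areg level was higher in each successive group, from 796 CPM with none to 1421, 2022 and 2676 CPM with 1, 2 and 3 genes and 7525 CPM in the 7 cells with all 4. In ketogenic cells it was 882, 1341, 1610 and 2590 CPM with 0 to 3 genes and 2336 CPM in the 12 cells with all 4. Single cells weigh on the groups with all 4. The chow group included the cell with 80 Il13 UMIs, which held 79 Areg UMIs among 3437 UMIs in all. A ketogenic cell with all 4 held 61 Areg UMIs among 5456. For these groups no interval and no level without such cells was computed. Il1rl1 stood at 766, 800, 858 and 770 CPM under chow with 0 to 3 genes and at 390 CPM with all 4. Under the ketogenic diet it stood at 497, 500, 551 and 546 CPM with 0 to 3 genes and at 665 CPM with all 4. Cells that carried more of the 4 genes were also deeper, with median UMIs of 2371 and 3168 under chow for 0 and 3 genes and of 2885 and 3740 under the ketogenic diet, and the part of depth in these groups was not tested.

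In the Treg-like cluster, Areg and Il1rl1 were highest in cells with Foxp3, the lineage factor of Tregs, and the type 2 cytokines were held by the other cells. This grouping was chosen after seeing the data. A Foxp3 UMI was found in 48 of 160 chow cells and 100 of 328 ketogenic cells, and cells without one may still express it. Areg stood at 3341 CPM [3012–3696] in chow cells with a Foxp3 UMI and at 1160 CPM [1055–1273] in those without. Under the ketogenic diet it stood at 2073 CPM [1935–2218] and 1201 CPM [1134–1270]. Il1rl1 followed the same order, with 886 and 511 CPM under chow and 493 and 333 CPM under the ketogenic diet. Cells without a Foxp3 UMI were deeper, with medians of 2794 against 2117.5 UMIs under chow and 3613 against 3185.5 under the ketogenic diet.

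Cells of cluster 7 without a Foxp3 UMI, 70.0% of its chow and 69.5% of its ketogenic cells, held 96.3% and 91.2% of its Il5 UMIs. They held 89.7% and 98.8% of its Csf2 UMIs and 100% and 96.7% of its Ccl1 UMIs. The 17 chow and 20 ketogenic cells with neither a Foxp3 nor a Cd3 UMI, 10.6% and 6.10% of the cluster, held 36.2% and 26.5% of its Csf2 UMIs and 24.6% and 40.0% of its Ccl1 UMIs, at medians of 4151 and 6076.5 UMIs per cell. Single chow cells held 18 of their 21 Csf2 and 14 of their 16 Ccl1 UMIs. Without the top cell of each library the shares were 7.50% and 19.9% for Csf2 and 3.92% and 29.9% for Ccl1. The cells with neither UMI held 9.26% and 19.2% of the Il5 UMIs of the cluster, or 3.92% and 12.3% without the top cells. They held 11.1% and 5.78% of its Il1rl1 UMIs and 5.83% and 2.05% of its Areg UMIs. In chow cells with a Foxp3 UMI, Il4, Il13 and Ccl1 had 0 UMIs, where the limit of 3 counts is 26.6 CPM and the exact Poisson interval reaches 32.7 CPM. The lower Areg of the ketogenic library in cluster 7 lay in cells with a Foxp3 UMI, where the log2 ratio was −0.69 [−0.87 to −0.51], while in cells without one it was 0.05 [−0.11 to 0.21]. The Il1rl1 ratio was below 0 in both, at −0.85 [−1.20 to −0.48] and −0.62 [−0.88 to −0.36].

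**Figure D5:**
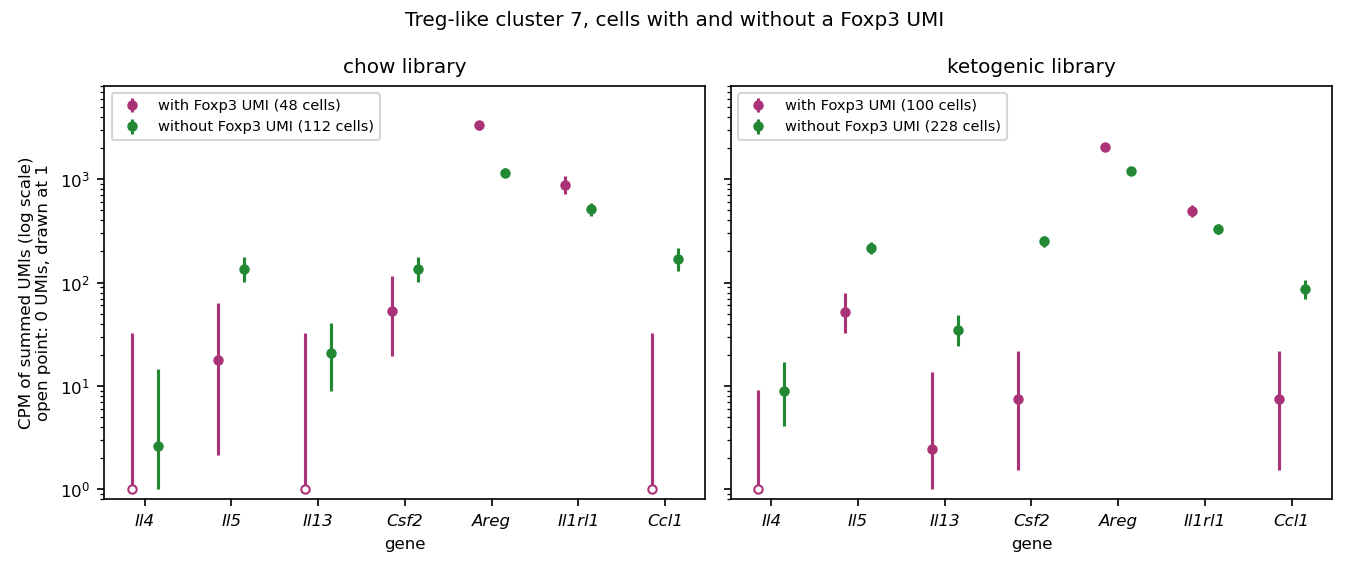
Level of the 7 genes in Treg-like cluster 7, in CPM on a log axis with exact Poisson 95% intervals, for cells with (purple) and without (green) a Foxp3 UMI; open points mark 0 UMIs. Areg is higher in cells with a Foxp3 UMI, at 3341 against 1160 CPM under chow, while Il5, Csf2 and Ccl1 are higher in cells without one.

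Cd3 transcripts in the ILC2-like cluster were few and mostly of Cd3g, yet the ratios of Il13, Il5 and Ccl1 differed with them. A UMI of Cd3e, Cd3d or Cd3g, chains of the T cell receptor complex, was found in 24.4% of chow and 28.5% of ketogenic cells of cluster 0. Thinned, the shares were 12.7% and 13.7%, against 3.03% and 7.50% in cDC1-like cells and 87.9% and 92.4% in the T-like cluster 2. In cells of cluster 0 with such a UMI the log2 ratio of Il13 was 1.38 [0.95–1.87], from 48 and 270 UMIs. In cells without one it was −0.25 [−0.52 to 0.02], from 200 and 290 UMIs, of which 1 chow cell held 80. Without the top cell of each library the ratios were 1.57 and 0.35, so the opposite sign rested on single cells. For Il5 the ratios were −0.22 [−0.42 to −0.02] and −0.70 [−0.85 to −0.55], and for Ccl1 0.19 [−0.02 to 0.41] and −0.86 [−1.01 to −0.72]. For Il1rl1 they were −0.57 [−0.74 to −0.39] and −0.64 [−0.74 to −0.54], and for Csf2 0.34 [0.16–0.52] and 0.46 [0.36–0.56]. Of the Cd3 UMIs in cluster 0, Cd3g had 317 chow and 625 ketogenic, Cd3e 43 and 91, and Cd3d 72 and 113. In cluster 7 the genes lay closer together, at 598 and 809 CPM for Cd3g, 291 and 343 CPM for Cd3e and 522 and 556 CPM for Cd3d. Trac, the constant part of the T cell receptor alpha chain, stood at 29.8 and 24.3 CPM in cluster 0 and at 547 and 911 CPM in cluster 2. What the cells with a Cd3 UMI are was not tested.

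Basophils, mast cells and eosinophils also make type 2 cytokines and were looked for by marker lists. The basophil and mast cell list summed to 265 chow and 212 ketogenic CPM in cluster 0. Of its 11 genes, 5 were at 0 under chow and none under the ketogenic diet. The defining basophil gene Mcpt8 had 0 and 1 UMIs there, while Kit and Hdc had 463 and 137 chow UMIs and 356 and 275 ketogenic UMIs. The mast cell tryptase Tpsb2 had 0 and 151 UMIs, of which 1 ketogenic cell held 150. Cells with at least 3 UMIs of the list numbered 79 in each library, 65 and 60 of them in cluster 0, and they held 65 of 1209 chow and 154 of 1757 ketogenic Il5 UMIs. Of Il13 they held 17 of 298 and 100 of 643 UMIs, and of Il4 they held 1 of 33 and 4 of 63. The eosinophil list summed to 24.4 and 9.40 CPM in cluster 0, with 4 and 2 of its 7 genes at 0, and their part in the results was not tested.

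In the remaining clusters each gene but Il4 stood below clusters 0 and 7, and single cells set several of the values. Over the 11 clusters other than 0 and 7, the median level of Il5 was 5.74 CPM (chow) and 7.53 CPM (ketogenic), and that of Il13 was 2.36 and 2.78 CPM. For Areg the medians were 52.7 and 59.7 CPM and for Il1rl1 22.6 and 19.2 CPM. In the T-like cluster 2, 6.34% of 8088 genes were at least 2-fold higher and 3.49% at least 2-fold lower. Of the 5 members with at least 20 UMIs there, Ccl1 was past 2-fold, with 6 chow and 169 ketogenic UMIs, 9.65 and 60.6 CPM. A single ketogenic cell held 77 of these 169, and without the top cell of each library the log2 ratio moved from 2.54 to 1.90. In the cycling cluster 10, 6.63% of 8071 genes were at least 2-fold higher, none of the members among them, and 5.38% at least 2-fold lower, which included Csf2 and Ccl1. Csf2 there stood at 66.0 CPM [53.1–81.0] and 22.0 CPM [15.3–30.5], and Ccl1 at 50.1 CPM [38.9–63.3] and 8.78 CPM [4.80–14.7]. Without the top cell of each library their log2 ratios moved from −1.58 to −2.35 and from −2.47 to −1.93. Il5 in cluster 10 had a log2 ratio of 0.98 [0.35–1.68], and 44 of its 67 ketogenic UMIs lay in 1 cell with 14 Cd3 UMIs. Without the top cell of each library that ratio was −0.01. Cells with a Foxp3 or Cd3 UMI made up 35.9% of the chow and 65.6% of the ketogenic cells of cluster 10, and ratios differed between them and the rest, a grouping chosen after seeing the data. For Csf2 the ratio was 0.34 [−0.62 to 1.47] in cells with such a UMI, from 12 and 32 UMIs, and −3.92 [−6.44 to −2.54] in the rest, from 79 and 3 UMIs. For Il5 it was 1.82 [0.82–3.17] and −1.14 [−2.82 to 0.13], and for Areg −0.14 [−0.45 to 0.18] and −1.66 [−2.15 to −1.22]. For Il1rl1, at −0.41 [−0.88 to 0.06] in the whole cluster, it was 0.00 [−0.70 to 0.77] and −0.89 [−1.70 to −0.17]. For Ccl1 it was below 0 in both, at −2.47 [−4.17 to −1.13] and −2.04 [−3.40 to −1.03]. Without the top cell of each library in each group these ratios were 0.13 and −4.64 for Csf2 and 1.74 and −1.23 for Il5. They were 0.04 and −1.99 for Areg, 0.11 and −1.03 for Il1rl1, and −1.30 and −1.38 for Ccl1. In the cDC2-like cluster 5, 58 of 113 ketogenic Csf2 UMIs lay in 1 cell of 17037 UMIs, which also had 6 Gata3 UMIs.

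Few genes around the members in the type 2 pathway were past 2-fold in ILC2-like cells. Of 94 genes in 5 lists, 76 had at least 20 UMIs in cluster 0, and among these none was at least 2-fold higher and 1 at least 2-fold lower, beside 2.85% and 3.09% of all 9274 genes. Counts this near the shares over all genes set the lists apart in neither direction. The median log2 ratio was −0.04 for the lists and 0.06 for all genes. The 1 gene was Csf2rb, the shared beta chain of the receptors for GM-CSF and interleukin-5, with 16 and 11 UMIs and a log2 ratio of −1.39 [−2.67 to −0.22]. Among 23 upstream receptors and partners, 12 were above and 11 below 0. The 3 with most UMIs were Tnfrsf18 at 0.39 (the costimulatory receptor GITR), Klrg1 at 0.08 and Ramp1 at −0.06 (a partner chain of the CGRP receptor). Among 23 transcription factors, 11 above and 12 below 0, those with most UMIs were Junb at 0.42, Id2 at 0.17, which innate lymphoid cells need, and Nfkb1 at −0.10. Gata3, the lineage factor of ILC2s, stood at 583 and 722 CPM, a log2 ratio of 0.31 [0.22–0.40].

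Among 16 genes of signalling and mRNA decay, Nfkbia stood at 0.27, Tnfaip3 at −0.30 and Zfp36l1 at −0.14, all feedback regulators of activation or of transcript stability. Among 10 other effectors that reached the minimum, Furin stood at −0.43 and the chemokine Cxcl2 at −0.71 [−0.78 to −0.64]. Of the receptors for the members and the alarmins, 4 of 14 reached it, and Il4ra at 0.34, Ccr8 at 0.52 and Csf2ra at −0.35 had the most UMIs. The immediate early and dissociation genes had a median log2 ratio of 0.05 over 18 genes, 9 above and 9 below 0, with Junb at 0.42, Jund at 0.32 and Fosb at −0.09. Of the sex chromosome genes used to check the libraries, Xist had 0 UMIs in cluster 0 of both, and Ddx3y, Eif2s3y and Uty stood at −0.06, 0.15 and −0.53. Kdm5d, with 33 and 27 UMIs, stood at −1.16.

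Genes most like the members across clusters were ranked by Pearson's r of log2(CPM + 20) over the 13 clusters with both libraries pooled, as a description over points that share libraries and depth. For Il5 they were Btnl9 (r = 0.978), Pcsk1, Rnf128, Csf2 and Map6, and for Il13 they were Klf5 (0.995), Ccr8, Dach2, AI593442 and Zcchc14. For Areg they were Il1rl1 (0.969), Dst, Il5, Fosl1 and Lgals7, and for Il1rl1 they were Areg, Fosl1, Dhx40, Il5 and Jund. These 20 entries are 18 genes, since Il5 and Fosl1 stand in both the Areg and the Il1rl1 list, and 11 of the 20 entries were again among the 5 most alike when the 26 sums of cluster and library were used. Of the 5 genes most like Il13, 4 were higher in cluster 0 of the ketogenic library, with log2 ratios from 0.52 for Ccr8 to 1.11 for Klf5. Zcchc14 was lower, at −0.99. The genes most like Areg ran from −0.82 for Dst to −0.10 for Fosl1. Those most like Il1rl1 ran from −0.69 for Dhx40 to 0.32 for Jund, and those most like Il5 from −0.69 for Btnl9 to 0.42 for Csf2. The median of all genes with at least 20 UMIs in cluster 0 was 0.06.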

How the data were processed

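The authors deposited matrices of raw UMI counts, whole numbers that were not scaled in any way, and a table of 13 clusters at a resolution of 0.5. The submitters' processing notes name Cell Ranger, Seurat and the mm10 build. Their versions, roles and filters are not given in the sources used here. Members and lists were chosen with earlier results of these data known. Clusters were named where at least 3 markers were raised 2-fold, of CPM plus 20, at least 1 of them among the 10 leading genes, and clusters 4 and 8 stayed unnamed.

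UMIs were summed per cluster and library with Python 3.11.15, numpy 2.4.6, scipy 1.17.1 and pandas 2.3.3. Log2 ratios have 0.5 added to each count, and genes needed 20 UMIs over both libraries. Thinning to 1000 UMIs used the exact hypergeometric expectation and lost no cell. Shares have exact Clopper-Pearson intervals. The ratio and its interval were tested on simulated Poisson counts only. That is the setting the interval assumes, so the simulation does not cover the spread between cells. Named genes are the members, the 5 genes most like each of Il5, Il13, Areg and Il1rl1, list genes past 2-fold and the 3 with most UMIs of each list. A further gene named by this rule is not reported here. Gata3, Trac, the marker genes and the sex chromosome genes past the 3 with most UMIs were named after their values were seen. Alternatives were other scalings, count rules, free RNA and Leiden clusters computed here (scanpy 1.11.5, leidenalg 0.10.2). Scrublet marked 6 of 4545 and 2 of 5614 cells, under 0.5%, so it was judged not to have worked and no doublets were removed. Of the 28692 gene identifiers 98.8% were in the GENCODE M21 annotation, and the marker symbol Pclaf was not found. The 142 cells without a cluster, all above 5% mitochondrial UMIs, were left out of the comparisons.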

Additional observations from a re-analysis of the deposited data

Results flagged for a closer look

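Several genes differed between the libraries in one direction in cluster 0 and in the other elsewhere, each beyond its own counting interval. None of these differences was tested, since each diet had 1 library. Il5, at −0.49 in cluster 0, stood at 1.76 in the NK-like cluster 1, 0.63 in the Treg-like cluster 7 and 0.98 in the cycling cluster 10. The NK-like value came from 4 and 30 UMIs, at most 1 in a cell, at 2.22 and 8.35 CPM, beside 5.74 and 7.75 CPM in cDC1-like cells, which should lack the gene. The cluster 7 value was 2.78 in cells with neither a Foxp3 nor a Cd3 UMI, from 5 and 46 UMIs, and 3.16 in them without the top cell of each library. Cells of cluster 7 with a Foxp3 UMI held 2 and 21 Il5 UMIs. The cluster 10 value was −0.01 without the top cell of each library, 1.82 in cells with a Foxp3 or Cd3 UMI and −1.14 in the rest. Csf2, at 0.42 in cluster 0, stood at −1.58 in cluster 10, where it was 0.34 in cells with a Foxp3 or Cd3 UMI and −3.92 in the rest. Such cells were 35.9% of the chow and 65.6% of the ketogenic cells of cluster 10, and the part of this make-up was not tested. Areg, at −0.15 in cluster 0, stood at 1.68 in the cDC1-like cluster 6, 0.96 in the B and plasma-like cluster 9 and 1.67 in the mature DC-like cluster 12. These came from 45 and 208, 17 and 84, and 11 and 32 UMIs, and without the top cell of each library the ratios were 1.82, 0.97 and 1.13. In cluster 12 a single cell held 14 of the 32 ketogenic UMIs. T cell transcripts were higher with Areg in clusters 6 and 9: the Cd3 genes summed to 32.8 and 99.6 CPM in cluster 6 and to 45.3 and 177 CPM in cluster 9, and Trac stood at 7.38 and 30.7 CPM and at 4.25 and 62.6 CPM. Their part in the Areg values was not tested. Ccl1, at −0.49 in cluster 0, stood at 2.54 in the T-like cluster 2 and 4.57 in cluster 9, where the chow library had 0 UMIs, so that the fitted value depends on the count added.

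Cells without a cluster, which entered no comparison, also held UMIs of the members above the limit of 3 counts. Under chow they held 88 Areg UMIs in 14 cells, 42 Il1rl1 UMIs in 15 cells, 32 Csf2 UMIs in 4 cells, 13 Ccl1 UMIs in 5 cells and 9 Il5 UMIs in 6 cells. Under the ketogenic diet they held 25 Areg UMIs in 9 cells and 23 Il1rl1 UMIs in 15 cells.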

How the results depend on the processing

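No paired analysis was possible because each diet had 1 library. An alternative was counted as moving a value when it left that value's counting interval. Of 77 alternatives for the 7 log2 ratios in cluster 0, 65 stayed within it. Those without the top 3 cells, and those without both the cells with a Cd3 UMI and the top cell, were not planned. The Il13 ratio of 0.30 reversed to −0.25 in cells without a Cd3 UMI, among them the chow cell with 80 Il13 UMIs, and was 0.35 in them without the top cell of each library. In all cells it moved to 0.69 without the top cell and 0.74 without the top 3 cells of each library. Without cells with a Cd3 UMI, Il5 moved to −0.70 and Ccl1 to −0.86, and without the top cells as well to −0.69 and −0.94. With the same lowest cell total of 2048 UMIs in both libraries, Il5 moved to −0.62, Csf2 to 0.31, Areg to −0.24 and Ccl1 to −0.62. Scaled by the median gene, which shifts all ratios by 0.08, Areg moved to −0.23. The cause of these moves was not tested.

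With 10% free RNA subtracted, the shares of UMIs in cluster 0 moved, chow then ketogenic, to 91.6% and 80.9% for Il5, 90.9% and 93.0% for Il13, 91.2% and 91.6% for Csf2, 60.5% and 65.7% for Areg, 69.1% and 74.3% for Il1rl1, and 86.8% and 82.4% for Ccl1. With the Leiden clusters computed here, in which 2120 of 2146 matched cells came from cluster 0, the chow shares moved to 78.1% for Il5, 85.6% for Csf2, 53.1% for Areg and 61.3% for Il1rl1. The ketogenic over chow ratio of the shares of cells with an Il1rl1 UMI was 0.724 thinned and 0.888 unthinned. With a minimum of 1 UMI, 6 of 90 pathway genes were 2-fold higher and 5 lower, beside 6.94% and 13.4% of all genes in cluster 0. With 100 UMIs none of 61 was, beside 0.759% and 1.11%. Of the 20 entries in the lists of most alike genes, 11 stayed over 26 sums. Of alternatives chosen after seeing the data, the Areg ratio in cluster 7 turned to 0.05 in cells without a Foxp3 UMI, and that of Ccl1 to 0.85 in cells without a Foxp3 or Cd3 UMI, and to 2.94 there without the top cells. In cluster 10 the Il5 ratio turned to −0.01 without the top cell of each library and to −1.14 in cells without a Foxp3 or Cd3 UMI (−1.23 without the top cells), and in cells with one Csf2 turned to 0.34 (0.13 without the top cells) and, without the top cells, Areg to 0.04. Depth limits Il4 most, with 23 and 31 UMIs in cluster 0.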
